A study of Homo sapiens with 22 samples.

Results

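The interleukin-1 (IL-1) family genes described here are 7 genes chosen by name, IL1A, IL1B, IL1RN, IL1R1, IL1RAP, IL18 and IL33, out of 36859 genes in the expression table. Each was found as 1 row, and 6 of the 7 passed the minimum for testing (at least 10 normalized counts in at least 2 of the 22 libraries), as did 14585 genes in all. IL1RN did not pass. The RNA-seq libraries came from RPTEC, a human renal proximal tubule epithelial line immortalized with hTERT, in 11 groups of 2 libraries each.

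In medium with 2% serum the groups were wild-type cells (WT), WT kept for 72 h with TGF-β at 10 ng per mL, the SETD2 knockout clones KO1 and KO2 (edited in exon 3), and a line labelled KO2_Rescue. In medium with 10% serum they were Rescue1 and Rescue2, which are KO cells given lentiviral FLAG-tagged full-length SETD2 and kept under blasticidin as single clones (which KO clone they came from is not given in the sources used here), and WT cells transduced in bulk with eGFP, OCT2, PRRX1 or SOX2 and selected with puromycin. All cells carry hTERT under G418. Each KO group is 1 clone of CRISPR-edited cells, KO1 and KO2 are named as the libraries are labelled, and a table accompanying the study may use these clone names the other way round. Nothing in the labels says that the libraries of a group came from separate cultures, so the p-values measure the spread between libraries, which may be technical.

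IL-1α (IL1A) and IL-1β (IL1B) are the agonists that bind the type 1 receptor IL1R1, which then recruits the accessory chain IL1RAP and signals through MYD88 and IRAK kinases to NF-κB. The receptor antagonist IL1RN occupies IL1R1 without signalling, and IL1R2 is a decoy receptor. IL-18 and IL-33 belong to the same family but act through their own receptors, IL18R1 with IL18RAP and IL1RL1 with IL1RAP. IL-1α and IL-33 can act as alarmins released from damaged epithelium, whereas IL-1β and IL-18 are cleaved by caspase-1 before they act, so mRNA levels alone do not give the amount of active cytokine.

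On GRCh38, IL1A (ENSG00000115008) spans positions 112773925 to 112784493 of chromosome 2 (minus strand), and IL1B (ENSG00000125538) follows on the same strand from 112829751 to 112836816. IL1RN (ENSG00000136689) is further along at 113099315 to 113134016 (plus strand), and the IL-36 genes, IL37 and IL1F10 are annotated between IL1B and IL1RN. IL1R1 (ENSG00000115594) spans 102064544 to 102179874 of the same chromosome (plus strand), in a row of receptor genes with IL1R2, IL1RL2, IL1RL1, IL18R1 and IL18RAP. IL1RAP (ENSG00000196083) is on chromosome 3 from 190514051 to 190659750, IL18 (ENSG00000150782) on chromosome 11 from 112143253 to 112164096 and IL33 (ENSG00000137033) on chromosome 9 from 6215786 to 6257983. An antisense gene, IL1R1-AS1, overlaps IL1R1, and a protein-coding gene on the opposite strand overlaps IL18, while the libraries were stranded. The annotations of IL18R1 and IL1RL1 overlap on the same strand, so reads could be divided between IL18R1 and IL1RL1.

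IL1A and IL1B were both higher in KO1, KO2 and WT eGFP than in WT, though not both with TGF-β, and their promoters are shown for that reason. RefSeq promoter windows were matched for 6 of the 7 members (not IL18), and 4 windows (IL1A, IL1B, IL1RAP and IL33) lie at the outermost annotated start of their gene. For IL1A the 250 bases before the start (chr2:112784494-112784743, minus strand, GRCh38.p14) and for IL1B the 213 bases before the outermost start (chr2:112836817-112837029, minus strand) read as follows, with motif matches in capitals.
IL1A: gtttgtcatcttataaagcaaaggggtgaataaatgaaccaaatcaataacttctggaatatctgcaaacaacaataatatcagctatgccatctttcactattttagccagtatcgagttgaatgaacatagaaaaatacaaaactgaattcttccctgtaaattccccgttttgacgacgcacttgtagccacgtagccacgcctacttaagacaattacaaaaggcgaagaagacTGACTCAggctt
IL1B: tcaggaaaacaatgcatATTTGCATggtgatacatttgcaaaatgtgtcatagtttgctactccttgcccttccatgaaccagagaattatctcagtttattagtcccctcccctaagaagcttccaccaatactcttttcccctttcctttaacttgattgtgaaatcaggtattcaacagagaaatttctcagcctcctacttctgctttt
The motifs searched on both strands were the AP-1 site TGANTCA, the octamer ATGCAAAT bound by POU factors such as OCT2, and the NF-κB consensus. The capitals in IL1A are an AP-1 match that begins 12 bases before the start, and 6.57% of all 35116 promoter windows of that length hold one. The capitals in IL1B are the octamer read on the other strand, beginning 233 bases before the RefSeq start, and 1.46% of windows of that length hold it. The NF-κB consensus had no match in the 4 windows, against 4.55% of all windows of 213 bases and 5.21% of those of 250 bases. These are letters in a window and say nothing of whether a factor binds there.

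The values are normalized counts, recovered from the deposited log2 values on the inference, from the values alone, that these are variance-stabilized counts. On this scale 1 read was worth 0.803 to 1.55 normalized counts depending on the library. Libraries held about 7800000 to 18600000 reads by this measure. A group is called at the floor when neither library exceeds the value of 3 reads, which was 2.41 to 4.66 normalized counts. SETD2, the targeted gene, had 1852 and 2061 normalized counts in WT, 1046 to 1130 in the 4 KO libraries and 9764 to 10445 in Rescue1 and Rescue2. The libraries labelled KO2_Rescue had 834 and 820, below both KO clones, so they are written as labelled throughout. The WT replicates stood apart in fibronectin, with FN1 at 5.37% and 1.49% of the total, and KO1 replicate 2 had the fewest genes above 0 (14082) although it was the deepest library.

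Differences on the log2(normalized count + 1) scale were tested in limma, with the 22 libraries in a joint fit, and a gene was called at a Benjamini-Hochberg adjusted p under 0.05 with an absolute log2 change over 1. Against WT, 5 of the 6 tested members were called in KO1, where 25% of all tested genes were called. IL1A, IL1B, IL1R1 and IL33 were higher and IL18 was lower. In KO2 the same 4 were called higher and none was called lower, against 16.3% of all genes. With TGF-β, IL1A was called higher and IL1R1 and IL18 lower, 3 of 6 members against 7.84% of all genes. The mean of both KO clones differed from TGF-β-treated WT in 5 of 6 members (IL1A, IL1B, IL1R1 and IL33 higher, IL1RAP lower), against 20.2% of all genes. KO1 differed from KO2 in 4 members (6.97% of all genes). Rescue1 and Rescue2 differed from KO2 in 5 members (17.5% of all genes), the libraries labelled KO2_Rescue in 4 (4.17%), and the rescue clones from WT eGFP in 2 (13.1%). WT eGFP differed from WT in 4 members (12.7% of all genes). The comparisons share the WT, KO2 and eGFP libraries, so their values are not independent of each other.

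Some settings bear on many of these calls. When the fit held no other libraries than those compared, each comparison of 2 against 2 rests on its own spread alone. In fits of this kind 13 of the members' calls were lost at adjusted p between 0.055 and 0.274. Among them were all 3 with TGF-β and all 4 between KO1 and KO2. Of all tested genes, 0 were called with TGF-β and 1 between KO1 and KO2 in these fits. On the deposited log2 scale, whose lowest value is 11.32 and which compresses low values, 28 calls fell under the threshold.

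**Figure D1:**
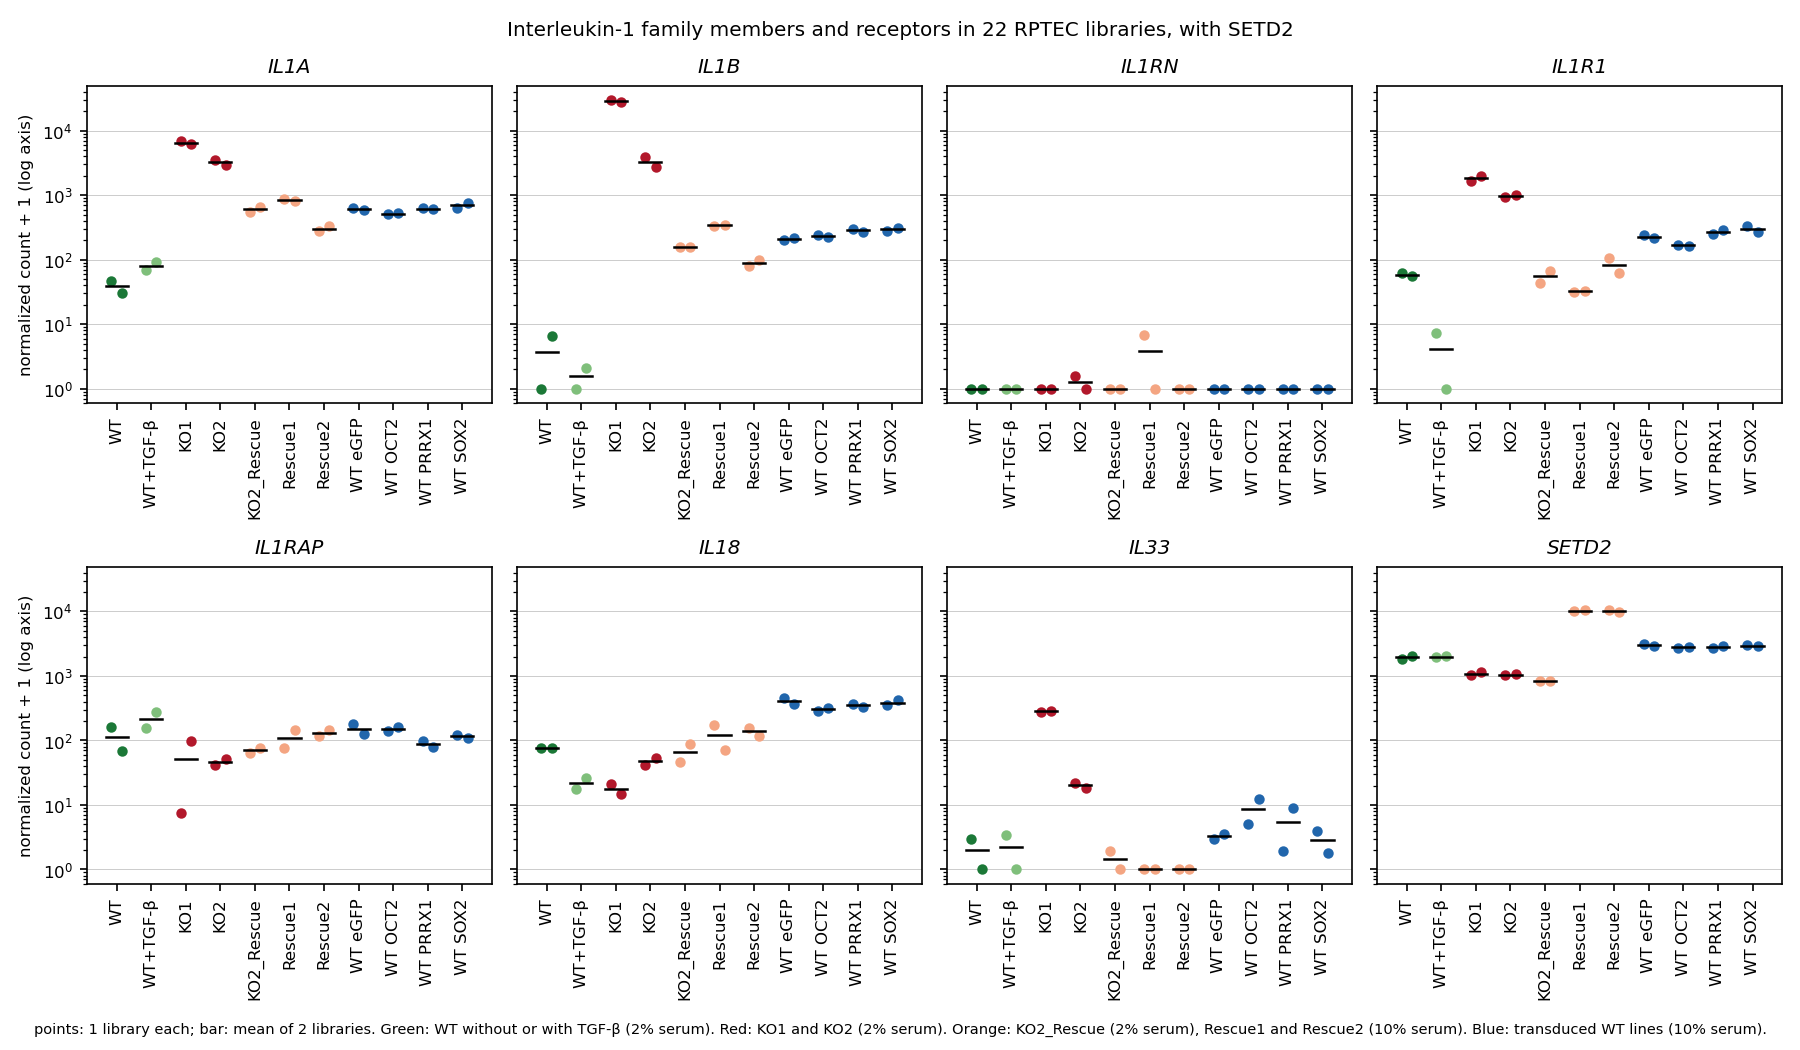
Normalized count + 1 (log axis) of the 7 members and of SETD2 in each of the 22 libraries, with a bar at the mean of the 2 libraries of a group. IL1A, IL1B, IL1R1 and IL33 are highest in the KO1 and KO2 libraries, IL1RN is at 0 in 20 libraries, and IL18 is highest in the transduced WT lines.

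IL1A, the precursor of IL-1α, was low in WT and rose in both KO clones. WT had 45.8 and 29.8 normalized counts, and TGF-β-treated WT had 67.1 and 89.6. KO1 had 6911 and 6150, and KO2 had 3522 and 2980. No KO library overlapped a WT library, and the lower KO1 value was 134 times the higher WT value, the lower KO2 value 65.1 times. The log2 change in KO1 was 7.43 (SE 0.19, adjusted p = 3.57e-13, limma), and that in KO2 was 6.42 (SE 0.19, adjusted p = 2.92e-12). With TGF-β it was 1.05 (SE 0.19, adjusted p = 0.00105), just over the size threshold. This call was lost without WT replicate 2 (0.75, adjusted p = 0.0169) or without TGF-β replicate 2 (0.84, adjusted p = 0.0193), with a pseudocount of 5 (0.97) and when library totals were made equal (0.82). Against TGF-β-treated WT the mean of the KO clones was higher by 5.87 (adjusted p = 6.35e-13).

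IL1A was below KO2 and above WT in every library of Rescue1 and Rescue2 and in both labelled KO2_Rescue. The libraries labelled KO2_Rescue had 552 and 647, Rescue1 had 872 and 798, and Rescue2 had 275 and 328. The log2 change from KO2 was −2.44 for the libraries labelled KO2_Rescue (SE 0.19, adjusted p = 5.56e-07) and −2.69 for Rescue1 and Rescue2 together (SE 0.16, adjusted p = 8.66e-09). The latter comparison goes from 2% to 10% serum, and the rescue clones were also transduced, selected and cloned again, from a parent clone that is not given. Serum, SETD2, transduction, selection and clone cannot be told apart in it. The comparison of the libraries labelled KO2_Rescue was made within 2% serum but without a rise in SETD2 mRNA. The transduced WT lines, also in 10% serum, had 502 to 743, with 626 and 581 in eGFP. WT eGFP exceeded WT by 3.99 (SE 0.19, adjusted p = 1.42e-09), a comparison in which serum, transduction and selection cannot be told apart. Rescue1 and Rescue2 together differed from WT eGFP by −0.27 (adjusted p = 0.242, 95% interval from −0.61 to 0.08), but Rescue1 alone was at 0.47 (adjusted p = 0.0816) and Rescue2 alone at −1.0 (adjusted p = 0.00112). The clones differed from each other by 1.47 (SE 0.19, adjusted p = 3.67e-04), where 0.994% of all genes were called, a comparison added after the values were seen.

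IL1B, the precursor of IL-1β, had the largest change of the members. WT had 0 and 5.50 normalized counts and TGF-β-treated WT 0 and 1.11. KO1 had 29431 and 28069, and KO2 had 3949 and 2701. The lower KO1 value was 5106 times the higher WT value and the lower KO2 value 491 times. The log2 change in KO1 was 13.46 (SE 0.57, adjusted p = 1.06e-10), and that in KO2 was 10.32 (SE 0.57, adjusted p = 4.4e-09), both on a scale that depends on the pseudocount because WT was near 0. TGF-β-treated WT was at the floor, and the mean of the KO clones was at least 4375-fold higher. That mean is set mostly by KO1 (28750 on average, against 3325 in KO2). The change with TGF-β was −0.81 (adjusted p = 0.414), which turned to 0.54 without WT replicate 2 and was −2.16 and called (adjusted p = 4.1e-04) without WT replicate 1.

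Rescue1, Rescue2 and the libraries labelled KO2_Rescue had less IL1B than KO2 and more than WT. The libraries labelled KO2_Rescue had 155 and 158, Rescue1 had 335 and 342, and Rescue2 had 80.2 and 97.1. These were lower than KO2 by a log2 change of −4.37 for the libraries labelled KO2_Rescue (SE 0.57, adjusted p = 1.34e-04) and −4.23 for Rescue1 and Rescue2 (SE 0.50, adjusted p = 1e-05). WT eGFP had 204 and 218, and the OCT2, PRRX1 and SOX2 lines 226 to 311. WT eGFP exceeded WT by 6.38 (SE 0.57, adjusted p = 1.36e-06). The rescue clones differed from WT eGFP by −0.28 (adjusted p = 0.73, 95% interval from −1.35 to 0.78), with Rescue1 alone at 0.68. Between Rescue1 and Rescue2 the difference was 1.93 (adjusted p = 0.152), called with a pseudocount of 5 (1.88, adjusted p = 0.00101).

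Both agonists were higher in KO1 than in KO2. The difference was 3.14 on the log2 scale for IL1B (SE 0.57, adjusted p = 0.00169), and the lower KO1 library was 7.11 times the higher KO2 library. For IL1A it was 1.01 (SE 0.19, adjusted p = 0.00182), which dropped under the size threshold without KO1 replicate 1 (0.92) or KO2 replicate 2 (0.89), with quantile normalization (0.93) and with equal totals (0.83). Per kilobase of the canonical transcript, the normalized count of IL1A was above that of IL1B in WT (18.7 against 1.82) and in WT eGFP (299 against 140.0). In KO1 the order was turned, with 3238 per kilobase for IL1A and 19078 for IL1B, and in KO2 the levels were 1612 and 2206. Over the 22 libraries IL1A and IL1B had Pearson r = 0.97 and Spearman rho = 0.93 on the log2 scale, a description in which the libraries of a group are not independent points.

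IL1RN, the receptor antagonist, was at 0 in 20 of 22 libraries. It had 0.59 normalized counts in KO2 replicate 1 and 5.75 in Rescue1 replicate 1, the shallowest library. It was at 0 in both KO1 libraries, the deepest, where 3 reads would have been worth 2.70 to 3.00 normalized counts. No test was made, and IL1RN mRNA was not detectable in KO1 at this depth.

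IL1R1, the signalling receptor, rose in the KO clones and fell with TGF-β. WT had 60.2 and 55.5 normalized counts. KO1 had 1670 and 1986, KO2 944 and 998, and TGF-β-treated WT 6.31 and 0. No library of these groups overlapped WT. In KO1 the log2 change was 4.95 (SE 0.60, adjusted p = 9.43e-06) and in KO2 it was 4.05 (SE 0.60, adjusted p = 1.02e-04). With TGF-β it was −4.44 (SE 0.60, adjusted p = 1.08e-04). Between TGF-β-treated WT and the mean of the KO clones the difference was 8.94 (SE 0.52, adjusted p = 3.35e-09). The sizes −4.44 and 8.94 depend on the pseudocount, since a TGF-β library was at 0. With a library left out they ranged from −5.88 to −3.01 and from 7.51 to 10.38. KO1 was above KO2 by 0.91 (adjusted p = 0.349).

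In Rescue1, Rescue2 and the libraries labelled KO2_Rescue, IL1R1 lay on both sides of the WT values. The libraries labelled KO2_Rescue had 42.3 and 66.5, Rescue1 30.9 and 31.9, and Rescue2 105 and 61.6. The log2 change from KO2 was −4.17 (SE 0.60, adjusted p = 2.84e-04) and −4.24 (SE 0.52, adjusted p = 1.47e-05) for the labelled KO2_Rescue libraries and the rescue clones. The transduced WT lines had 164 to 335, and eGFP had 240 and 215. WT eGFP was above WT by 1.95 (SE 0.60, adjusted p = 0.0255), a call lost when any 1 of the 4 libraries was left out (1.88 to 2.03, adjusted p from 0.0761 to 0.117) and with a pseudocount of 0.5. The rescue clones were below WT eGFP by −2.15 (SE 0.52, adjusted p = 0.00559), which was −2.07 (adjusted p = 0.0554) without eGFP replicate 1 and −1.49 (adjusted p = 0.0897) with Rescue2 alone.

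The decoy receptor IL1R2 had 71.0 and 88.7 normalized counts in WT, 117 and 140 in KO1, and 0 and 26.3 in KO2. It was called lower in KO2 (−3.94, SE 1.01, adjusted p = 0.00793) and was at 0.68 in KO1 (adjusted p = 0.64), and the clones differed by 4.62 (adjusted p = 0.00599). Because a KO2 library was at 0, the sizes −3.94 and 4.62 depend on the pseudocount and on that library.

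IL1RAP, the shared accessory chain of IL1R1 and IL1RL1, was not called between any KO clone and WT. WT had 159 and 68.5 normalized counts, TGF-β-treated WT 156 and 277, KO1 6.42 and 95.8, and KO2 41.1 and 50.1. The replicates of WT and of KO1 were far apart. The KO1 change was −1.98 (SE 0.80, adjusted p = 0.0641), which was −3.83 (adjusted p = 4.54e-05) without KO1 replicate 2, −0.12 without KO1 replicate 1 and called with equal totals (−2.36, adjusted p = 0.0245). The KO2 change was −1.18 (adjusted p = 0.314). The mean of the KO clones was below TGF-β-treated WT by −2.57 (SE 0.69, adjusted p = 0.00915), which was −2.15 (adjusted p = 0.104) without TGF-β replicate 2 and −1.64 without KO1 replicate 1. In all other groups IL1RAP lay between 63.6 and 177, and its change in the rescue clones from KO2 was 1.33 (adjusted p = 0.162). This was called higher with the mean of KO1 and KO2 as the reference (1.73, adjusted p = 0.0219) and when no other groups were in the fit (1.33, adjusted p = 0.0416).

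IL18, the precursor of IL-18, fell with TGF-β and in KO1. WT had 75.8 and 75.2 normalized counts, TGF-β-treated WT 16.9 and 25.6, KO1 19.8 and 13.6, and KO2 40.6 and 52.9. All 6 treated or KO libraries lay below both WT libraries. The log2 change was −1.81 with TGF-β (SE 0.40, adjusted p = 0.00534), which was −1.52 (adjusted p = 0.0632) without TGF-β replicate 1. KO1 had a change of −2.13 (SE 0.40, adjusted p = 5.86e-04) and KO2 one of −0.69 (SE 0.40, adjusted p = 0.23, 95% interval from −1.55 to 0.17). The clones differed by −1.44 (SE 0.40, adjusted p = 0.0239), a call lost without KO1 replicate 2 (−1.19, adjusted p = 0.142), KO2 replicate 1 (−1.63, adjusted p = 0.0534) or KO2 replicate 2 (−1.26, adjusted p = 0.155).

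IL18 was highest in the transduced WT lines, where every library had 280 to 454 normalized counts and eGFP had 454 and 360. WT eGFP was above WT by 2.41 (SE 0.40, adjusted p = 3.94e-04). The libraries labelled KO2_Rescue had 45.3 and 87.5, Rescue1 174 and 70.7, and Rescue2 156 and 118. The rescue clones were above KO2 by 1.38 (SE 0.35, adjusted p = 0.00612), which was 1.2 (adjusted p = 0.0753) without KO2 replicate 1, and below WT eGFP by −1.71 (SE 0.35, adjusted p = 0.00165). The change of the libraries labelled KO2_Rescue was 0.43 (adjusted p = 0.622). The IL18 libraries of the rescue clones all lay above those of KO2 and below those of the transduced WT lines.

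IL18R1, the ligand-binding chain of the IL-18 receptor, rose in both KO clones. It had 36.7 and 47.9 normalized counts in WT, 277 and 267 in KO1 and 127 and 107 in KO2. The log2 change was 2.67 (SE 0.48, adjusted p = 4.27e-04) and 1.45 (SE 0.48, adjusted p = 0.035), and the rescue clones were below KO2 by −2.19 (adjusted p = 8.67e-04). IL18RAP, the signalling chain, did not pass the minimum for testing and had at most 37.6, in KO1 replicate 2, with 4.14 in the other KO1 library.

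IL33, the alarmin of the family, was seen above the floor in every KO library. KO1 had 274 and 288 normalized counts and KO2 21.1 and 17.6. WT had 2.00 and 0, TGF-β-treated WT 2.39 and 0, and both were at the floor. Relative to WT, IL33 was therefore at least 105-fold higher in KO1 (log2 change 7.34, SE 0.86, adjusted p = 6.93e-06). KO2 had at least 7.20-fold more (3.55, SE 0.86, adjusted p = 0.00561), a call that was lost without WT replicate 2 (2.75, adjusted p = 0.0695). KO1 exceeded KO2 by 3.80 (SE 0.86, adjusted p = 0.00764), which was 3.67 (adjusted p = 0.0542) without KO2 replicate 2.

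IL33 was at 0 in all 4 libraries of Rescue1 and Rescue2 and had 0.93 and 0 in the libraries labelled KO2_Rescue. Both were at the floor, at least 4.15-fold lower than KO2 for the rescue clones (adjusted p = 3.44e-04) and at least 5.97-fold lower for the labelled KO2_Rescue libraries (adjusted p = 0.00902). The latter call was lost without KO2 replicate 1 (adjusted p = 0.0633) or KO2_Rescue replicate 2 (adjusted p = 0.0888). The transduced WT lines had 0.82 to 11.4, with both eGFP libraries under 3 reads. Its receptor IL1RL1 was at 0 in 21 of 22 libraries and had 1.18 in KO2 replicate 2.

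**Figure D2:**
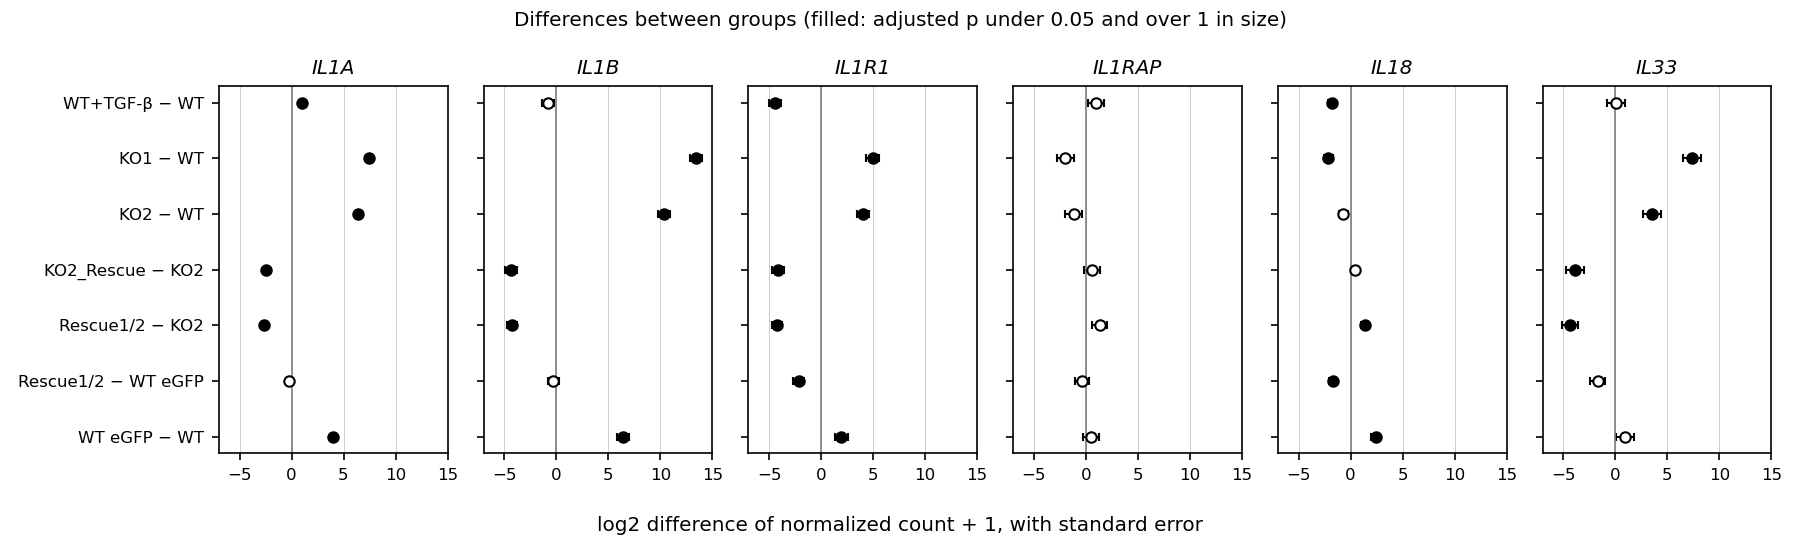
Log2 differences of normalized count + 1 between groups for the 6 tested members, as points with standard errors (filled where called at adjusted p under 0.05 and a size over 1). IL1A, IL1B, IL1R1 and IL33 are to the right of 0 in KO1 and KO2 and to the left of 0 in both comparisons with KO2, whereas IL18 is to the left in KO1 (−2.13) and to the right in the rescue clones against KO2 (1.38).

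OCT2, PRRX1 and SOX2, transcription factors given to WT cells, gave 0 of 6 called members against WT eGFP in limma. The share of all genes called was 0.0343% for OCT2, 0.0411% for PRRX1 and 0.0206% for SOX2, and 1026, 673 and 986 genes had an unadjusted p under 0.05. IL1B differed by 0.14 (95% interval from −1.09 to 1.37) with OCT2, 0.42 (from −0.81 to 1.65) with PRRX1 and 0.47 (from −0.76 to 1.70) with SOX2. IL1A differed by −0.22 (from −0.62 to 0.18), 0.03 (from −0.37 to 0.43) and 0.20 (from −0.20 to 0.59). The intervals for IL1A stay within a log2 change of 1, while those for IL1B do not. Every adjusted p of a member was 0.864 or higher, and that alone does not show equal levels.

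Of the other family ligands, IL36G was the single one that passed the minimum, with 21.2 and 0 normalized counts in KO1, 6.20 and 13.3 in KO2 and at most 0.57 in WT. Neither its KO1 change (1.91, adjusted p = 0.195) nor its KO2 change (3.02, adjusted p = 0.0565) was called. IL36A, IL36B, IL36RN, IL37 and IL1F10, which lie between IL1B and IL1RN or beside them, had group means of at most 2.80. Among the receptor genes, IL1R1 and IL18R1 rose in both KO clones, and IL1RL1 and IL1RL2 did not pass the minimum.

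**Figure D3:**
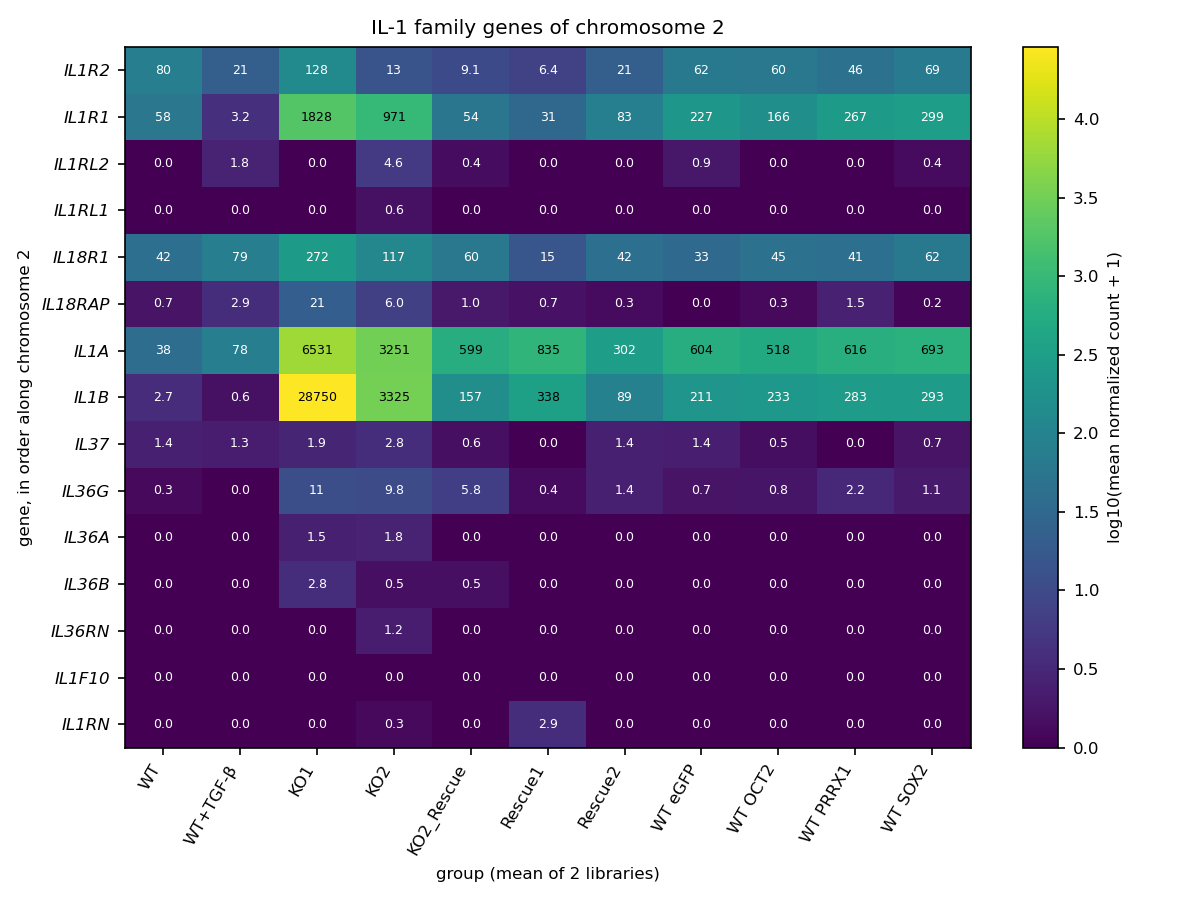
Mean normalized count (colour on a log10 scale, value printed, n = 2 libraries) of the IL-1 family genes of chromosome 2, from top to bottom in their order along the chromosome, in each group. IL1A, IL1B and IL1R1 stand out in KO1 and KO2, while the genes between IL1B and IL1RN have group means of 10.6 or less.

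Of 14 tested genes for maturation and release of the cytokines, 4 were called in KO1 (2 higher, 2 lower) and 1 in KO2, where 25% and 16.3% of all genes were called. CASP1, the protease that cleaves pro-IL-1β and pro-IL-18, was called higher in both. It had 19.1 and 33.5 normalized counts in WT, 111 and 151 in KO1 and 164 and 266 in KO2, with log2 changes of 2.31 (SE 0.75, adjusted p = 0.024) and 3.00 (SE 0.75, adjusted p = 0.00694). PYCARD, the adaptor that links inflammasome sensors to caspase-1, was at 0 in every WT, KO1 and KO2 library, and NLRP3, a sensor, averaged 39.1, 39.3 and 55.8. PYCARD and NLRP3 were named after their values were seen.

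Of 18 tested genes of receptor-proximal signalling, 4 were called higher in KO1 and 2 in KO2, and none lower, which is no larger a share than the 25% and 16.3% of all genes called. IRAK3, an inhibitory member of the IRAK family, had 7.41 and 1.66 normalized counts in WT, 2379 and 3007 in KO1 and 1570 and 1847 in KO2. Its log2 change was 9.14 (SE 0.69, adjusted p = 6.43e-08) and 8.49 (SE 0.69, adjusted p = 2.56e-07). It had 364 and 477 in the libraries labelled KO2_Rescue, 305 and 258 in Rescue2, but 0 and 3.10 in Rescue1. MAP3K8, a kinase downstream of the receptor, had log2 changes of 3.29 (adjusted p = 8.37e-07) in KO1 and 2.86 (adjusted p = 5.96e-06) in KO2. MYD88, IRAK1, IRAK4 and TRAF6, the core of the receptor complex, were not called in either clone, though MYD88 was at −3.13 in KO1 with an SE of 1.54. These 4 were named after their values were seen.

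Of 32 genes known to respond to IL-1 in other cells, 28 were in the table and 25 were tested. In KO1, 21 of the 25 were called higher and none lower, with a list median of 3.46, against 25% of all genes and a median over all genes of 0. In KO2, 18 were called higher and none lower, with a list median of 2.75, against 16.3%. CSF3, which encodes G-CSF, was at 0 in both WT libraries and had 842 and 912 normalized counts in KO1 and 153 and 86.1 in KO2, bounds of at least 327-fold (KO1) and at least 44.5-fold (KO2) above WT. CCL20 had 7.71 and 10.3 in WT, 3601 and 3582 in KO1 and 2757 and 2742 in KO2 (log2 changes 8.50 and 8.11, adjusted p = 5.52e-13 and 1.88e-12). LCN2, a tubular injury marker, had at most 0.94 in WT, 70.6 and 121 in KO1 and 123 and 112 in KO2, or at least 35.6-fold (KO1) and at least 43.8-fold (KO2) above WT. Most genes of this list also respond to other signals. Leaving out WT replicate 2, which leaves a single WT library, changed the counts of called genes in both clones.

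With TGF-β, 5 of the 25 response genes were called higher and 5 lower, against 7.84% of all genes called. IL11 (3.50), CCL2 (1.74), IER3 (1.28), ZC3H12A (1.11) and TNFAIP3 (1.01) were higher and C3 (−2.48), SAA1 (−2.39), SAA2 (−1.82), CCL20 (−1.19) and CXCL2 (−1.08) lower. These were named after their values were seen. The calls with TGF-β rested in part on WT replicate 2. With only the WT and TGF-β libraries in the fit, none of the response genes was called. In that fit 0 of all tested genes were called, so it cannot tell the response genes from other genes.

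**Figure D4:**
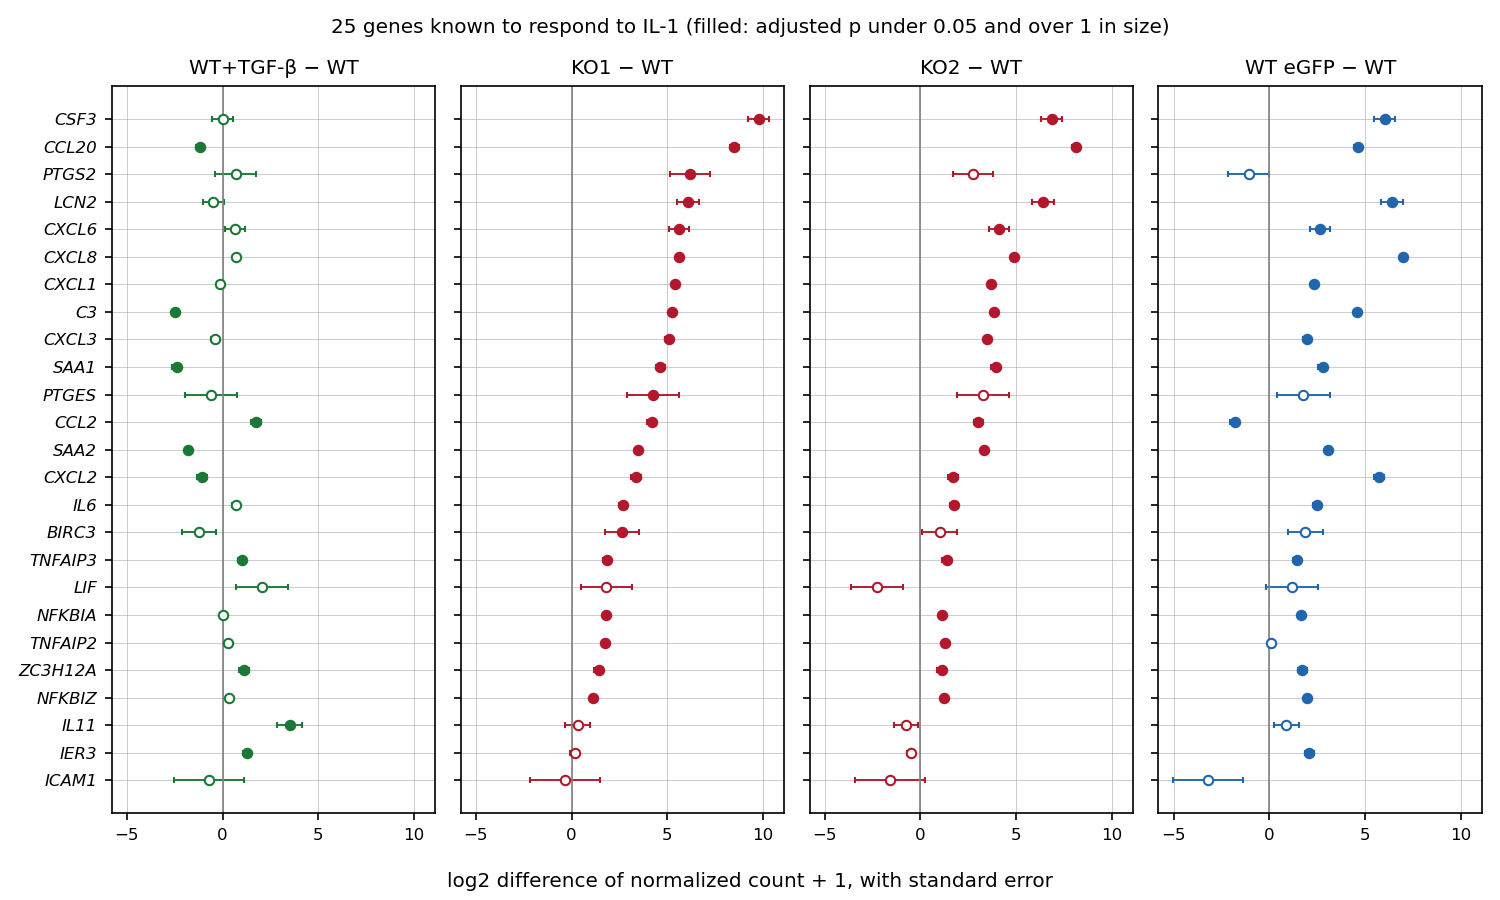
Log2 differences of normalized count + 1 from WT for the 25 tested IL-1 response genes, with standard errors (filled where called), in TGF-β-treated WT, KO1, KO2 and WT eGFP. In KO1 and KO2 the called genes all lie to the right of 0, 21 and 18 of them, while 5 lie on each side with TGF-β.

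The response genes were mostly lower in the rescue clones than in KO2 and in WT eGFP. Against KO2, 17 of 25 were lower and 1 was higher in the rescue clones (LIF), and 17 were lower in the libraries labelled KO2_Rescue, against 17.5% and 4.17% of all genes called. Against WT eGFP, 19 were called lower in the rescue clones and 1 higher (CCL2), with a list median of −2.08, against 13.1% of all genes called. The differences of IL1A (−0.27) and IL1B (−0.28) in that comparison are given above, and whether the list and the agonists differ was not tested. CXCL8, for example, had 4817 and 4353 normalized counts in WT eGFP, 537 and 522 in Rescue1 and 204 and 222 in Rescue2 (log2 change −3.76, SE 0.14, adjusted p = 6.85e-11). With WT in 2% serum as the reference in place of WT eGFP, 4 were higher and 2 lower in the rescue clones. Of all tested genes, 1755 were called with that reference and 1915 with WT eGFP. WT eGFP itself had 17 called higher and 1 lower (CCL2) than WT, against 12.7% of all genes. LIF, CCL2 and CXCL8 were named after their values were seen.

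Leukocyte markers, which matter because IL1B is abundant in monocytes, were 13 of 14 in the table and 3 of them were tested. Their summed level was 22.5 to 76.1 normalized counts in WT, 35.2 to 128 in KO1, 24.3 to 49.4 in KO2 and 207 to 264 with TGF-β. TYROBP and CD3E were at 0 in all 22 libraries, ITGAM was at 0 in all WT and KO libraries, and PTPRC averaged 2.04 in KO1 and 4.32 in KO2. CD14, a monocyte marker, was called higher in KO1 (2.71, adjusted p = 0.00611, limma) and in WT eGFP against WT (2.80, adjusted p = 0.00778). With TGF-β, CD14 (2.28, adjusted p = 0.0349) and CSF1R (3.15, adjusted p = 0.0206) were called higher. CD14 averaged 0 normalized counts in WT, 3.91 with TGF-β (at least 1.46-fold above WT) and 6.06 in WT eGFP, so its log2 changes depend on the pseudocount. CSF1R averaged 36.0 in WT and 215 with TGF-β. Of all genes, 25% were called in KO1, 12.7% in WT eGFP and 7.84% with TGF-β. None of the 3 tested leukocyte markers was called in KO2. Summed fibroblast markers, mainly COL1A1 in TGF-β-treated WT and WT replicate 1 and mainly DCN in the KO clones, were at 12453 and 846 in WT. They were at 47818 and 46409 in TGF-β-treated WT, 236668 and 223519 in KO1, 100083 and 103695 in KO2, 39220 and 41555 in the libraries labelled KO2_Rescue, 830 to 1536 in Rescue1 and Rescue2 and 3686 to 6048 in the transduced lines. The sums were highest in KO1 and KO2, where IL1A and IL1B were also highest. TGF-β-treated WT had a larger sum than Rescue1, with less IL1A (67.1 and 89.6 against 872 and 798) and less IL1B (0 and 1.11 against 335 and 342). These groups also differ in TGF-β, serum, editing, transduction, selection and clone, and whether the sums and the agonists are related was not tested. Of 9 fibroblast markers tested, 5 were called higher and 1 lower in KO1, 5 higher in KO2 and 3 higher with TGF-β. Of all genes, 25%, 16.3% and 7.84% were called in these comparisons. Endothelial markers summed to 127 and 149 in KO1 and 157 and 152 in KO2, against 5.0 and 40.3 in WT. KDR was the 1 of 4 tested that was called higher in each clone (6.41, adjusted p = 1.36e-05, and 6.68, adjusted p = 1.46e-05, limma). A count of 1 in 4 is near the shares of all genes called, 25% in KO1 and 16.3% in KO2. Of 2 tested keratinocyte markers, KRT10 was called higher in KO2 (1.03) and TP63 with TGF-β (3.50), where 16.3% and 7.84% of all genes were called. The part of these markers in the results was not tested, and those named here were chosen after their values were seen. Of 17 proximal tubule markers 12 were tested, and LRP2, SLC34A1, SLC5A2, SLC22A6 and HNF4A did not pass the minimum. Their sum was 21049 and 23477 in WT, 14504 and 14192 in KO1 and 19276 and 18383 in KO2. Of the 12, 4 were called higher and 2 lower in KO1, and 3 higher and 1 lower in KO2. The share of all genes called was 25% in KO1 and 16.3% in KO2. In these bulk libraries a change in the share of cells that express a member and a change in mRNA per cell cannot be told apart.

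The genes whose level followed each member most closely over the 22 libraries are given as a description, since libraries of a group share their cells and a few groups set much of the spread. For IL1A they were SH3BP1 (Pearson r = 0.972, Spearman rho = 0.827), MXRA7 (0.971 and 0.834) and FEZ1 (0.965 and 0.746). For IL1B they were SLC43A3 (0.98 and 0.838), SH3BP1 (0.975 and 0.784) and BDKRB2 (0.969 and 0.789). For IL1R1 they were FCMR (0.962 and 0.939), the acute-phase gene SAA1 (0.943 and 0.93) and BDKRB2 (0.913 and 0.863). For IL33 they were CD44 (0.945 and 0.815), KCNE5 (0.916 and 0.852) and H2BC20P (0.914 and 0.878). For IL18 they were GLT8D2 (0.954 and 0.898), FXR1 (0.954 and 0.949) and PRICKLE1 (0.942 and 0.888), and for IL1RAP GALNT14 (0.911 and 0.746), TLL2 (0.904 and 0.825) and MKKS (0.828 and 0.653).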

How the data were processed

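RNA-seq (TruSeq stranded mRNA, 3 µg RNA, NovaSeq, 150 bp paired ends) was analysed for 22 libraries in 11 groups of 2. Per the study's methods and the submitters' processing notes, reads were quantified with Salmon 1.9.0 on Ensembl release 94 transcripts of GRCh38 and normalized with DESeq2 1.26.0. The deposited table holds log2 values made by the authors for 36859 genes, with a shared lowest value of 11.32. The transformation is not named in the sources used here. It was inferred from the values to be a variance stabilization, with the lowest value as a count of 0, and was inverted on that basis to normalized counts, on which every count printed here rests. They added up to between 11674491 and 16758645 per library. The value of 1 read in each library was read from the steps between low values. It gives the depth only approximately, because Salmon's counts are estimates, so no count test was run. Intervals and floors cover counting error or spread between 2 libraries only.

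The 14585 genes that reached 10 normalized counts in 2 or more libraries were tested with limma 3.58.1 (R 4.3.3, trend) on log2(normalized count + 1), with 1 mean per group, and adjusted by Benjamini-Hochberg within each comparison over all tested genes. Intervals of 95% are limma's. The fit was tested on simulated data. As alternatives, the pseudocount was 0.5 or 5, the filter was dropped or set to a mean of 50 normalized counts, and values were quantile-normalized. Others were equal totals, the deposited log2 values, only the groups compared, a replicate block, other references for the rescue clones and each library left out. Gene positions and transcript lengths are from GENCODE 44 on GRCh38. The genes named beside the members were up to 3 of each pathway list with the largest log2 change among those called in the same direction in KO1 and KO2, IL1R2, IL1RL1, IL18R1 and IL18RAP, and the 3 genes most like each member by Pearson r, and others are named as chosen later. The members and gene lists were chosen with earlier results of these data known. IRAK2, CXCL5, CSF2, SOD2 and MMP1 were not analysed here.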

Additional observations from a re-analysis of the deposited data

Results flagged for a closer look

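Results were picked out here where the same contrast differed between clones in a direct test (limma, Benjamini-Hochberg adjusted p). Between the SETD2 KO clones, IL1B was higher in KO1 than in KO2 by 3.14 on the log2 scale (adjusted p = 0.00169), IL33 by 3.80 (adjusted p = 0.00764) and IL1A by 1.01 (adjusted p = 0.00182), whereas IL18 differed by −1.44 (adjusted p = 0.0239). In this comparison 6.97% of all genes were called. With only the KO1 and KO2 libraries in the fit, 0 members and 1 of all tested genes were called. The IL1A, IL18 and IL33 differences also lost their call when some libraries were left out, as given above. Each KO group is 1 clone, so clone and genotype cannot be told apart. Between the rescue clones, IL1A was higher in Rescue1 than in Rescue2 by 1.47 (adjusted p = 3.67e-04), where SETD2 was at 10240 and 10369 normalized counts in Rescue1 and 10445 and 9764 in Rescue2.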

How the results depend on the processing

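Counts of called members kept within 1.5 times of those reported under most settings. On the deposited log2 values, compressed at low counts by construction, they were 2 for KO1 and KO2 against WT and for KO against TGF-β, 1 for KO1 against KO2 and for both rescue comparisons with KO2, and 0 for TGF-β and eGFP against WT, for rescue against eGFP and for Rescue1 against Rescue2. All genes called on those values were 178 for KO1 and 94 for KO2 against WT, where 3653 and 2378 were called as reported. With only the groups compared the counts of members were 0 for TGF-β, for KO1 against KO2 and for Rescue1 against Rescue2. Of all genes, 0, 1 and 1 were called in these fits. For Rescue1 against Rescue2, a pseudocount of 5 gave 2 members. Leaving out 1 library gave 1 to 4 members for KO1 against KO2 (1 without KO2 replicate 2) and 1 to 2 for rescue against eGFP (1 without eGFP replicate 1).

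Directions turned for rescue against eGFP with Rescue1 alone (IL1A 0.47, IL1B 0.68) and with WT in 2% serum as the reference (IL1A 3.73, IL1B 6.09, IL18 0.69, IL1RAP 0.15), and for IL1RAP in OCT2 with quantile normalization (−0.02). With a library left out the ranges crossed 0 with TGF-β (IL1B −2.16 to 0.54, IL33 −0.79 to 0.97), between KO1 and KO2 (IL1RAP −2.64 to 1.06), in eGFP against WT (IL1RAP −0.10 to 1.11), in the libraries labelled KO2_Rescue (IL18 −0.03 to 0.9), in SOX2 (IL18 −0.25 to 0.08, IL33 −0.84 to 0.29) and between the rescue clones (IL1RAP −0.77 to 0.14, IL18 −0.93 to 0.36). They also did so for IL1RAP in OCT2 (lowest −0.24) and for IL1A (lowest −0.02) and IL33 (lowest −0.76) in PRRX1. Of these, IL18 in rescue against eGFP was called as reported (−1.71) and the others were not. The cause was not tested.

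With equal totals the median over all genes was −0.39 in KO1, −0.20 in KO2 and with TGF-β, −0.21 between KO1 and KO2 and 0.26 in rescue against KO2. As reported it was −0.03 in the last 2 comparisons and within 0.003 of 0 in the others. A replicate block left all 78 member calls as they were, with 5 members for KO1 and 4 for KO2. The numbers do not pair the libraries, since replicate differences of the 55 pairs of groups correlated at −0.08 to 0.05. Libraries of 2 per group and 3 reads as the floor limit IL1B, IL33 and IL1R1 where they are low.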
